A study of Homo sapiens with 6 samples.

Results

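The genes described are 10 that encode proteins of the adherens junction and the desmosome, out of 17787 gene symbols listed in the deposited tables. They were chosen by symbol from knowledge of these junctions: the classical cadherin CDH1, the catenins CTNNA1 and CTNND1, the desmosomal cadherins DSG2 and DSC2, the armadillo proteins JUP, PKP2 and PKP3, and the plakins DSP and PPL. RNA was sequenced from A549, a cell line derived from a human lung adenocarcinoma, in 6 libraries. Of these, 3 were labelled siFOXD3, after a small interfering RNA, a short duplex that directs degradation of a chosen transcript, named for the transcription factor FOXD3, and 3 were labelled siNC, with the genotype given as wild type; siNC served as the control and is not spelled out in the labels. The siRNA sequence, its dose and the duration are not stated in the labels. Each library has an FPKM value per gene, a fragment count divided by transcript length and sequencing depth.

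Epithelial cells hold on to each other through these junctions. In the adherens junction, E-cadherin (CDH1) binds its counterpart on the next cell, beta-catenin or plakoglobin (JUP) binds its tail, alpha-catenin (CTNNA1) links the complex to actin, and p120-catenin (CTNND1) holds the cadherin at the surface. In the desmosome, desmogleins and desmocollins take the place of the classical cadherin, plakoglobin and the plakophilins bind their tails, and desmoplakin (DSP) ties the plaque to keratin filaments; periplakin (PPL) is a related linker of the keratin network. Loss of E-cadherin is a known step of the epithelial-mesenchymal transition in carcinomas, and desmosome proteins are best known from skin and heart, where their mutations cause disease.

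FOXD3 was listed at 0.0749 FPKM in siFOXD3 replicate 2 and was not listed in siFOXD3 replicates 1 and 3, against 0.152, 0.291 and 0.134 FPKM in siNC. These values were below the 1 FPKM that a gene had to reach in 3 libraries, so FOXD3 was not tested. The steps between low FPKM values put the depth at an estimated 7620000 to 8720000 fragments in siFOXD3 and 7690000 to 7830000 in siNC, and at this depth the least covered member had an estimated 491 fragments in its lowest library. Of 11 markers of A549 and lung adenocarcinoma, 8 reached 1 FPKM in both groups, while the surfactant gene SFTPB was in no file and SFTPC was at most at 0.149 FPKM. The extraction protocol in the labels speaks of retina, and of 10 photoreceptor markers 0 reached 1 FPKM in any library. In bulk RNA, fewer cells of a type and less RNA per cell cannot be told apart. Whether replicates came from separate cultures is not stated. P-values compare the group difference with the spread of libraries within a group, and that spread may be technical only.

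All 10 members were listed in every library, between 7.27 and 120 FPKM, and all 10 were tested. In siFOXD3, 3 members fell, 3 rose and 4 were not called by limma at a Benjamini-Hochberg adjusted p under 0.05; median-of-ratios scaling ended the call of CDH1 and quantile normalization that of DSP. The 3 that fell are the 3 members specific to the adherens junction, CDH1, CTNNA1 and CTNND1. The 3 that rose, PKP3, PPL and DSP, belong to the desmosome plaque and the keratin linkers. The desmosomal cadherins DSG2 and DSC2 and the linkers JUP and PKP2 were not called. Over all 12555 genes tested, 65.9% were called, 27.2% higher and 38.7% lower, so a share of 6 in 10 is near the background and is no result about the members as a group. The median log2 fold change was -0.05 over the members and -0.08 over all genes tested. The summed FPKM of the members was 442, 447 and 444 in siFOXD3 and 454, 443 and 443 in siNC, so the summed level of the groups overlapped while its composition differed.

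**Figure D1:**
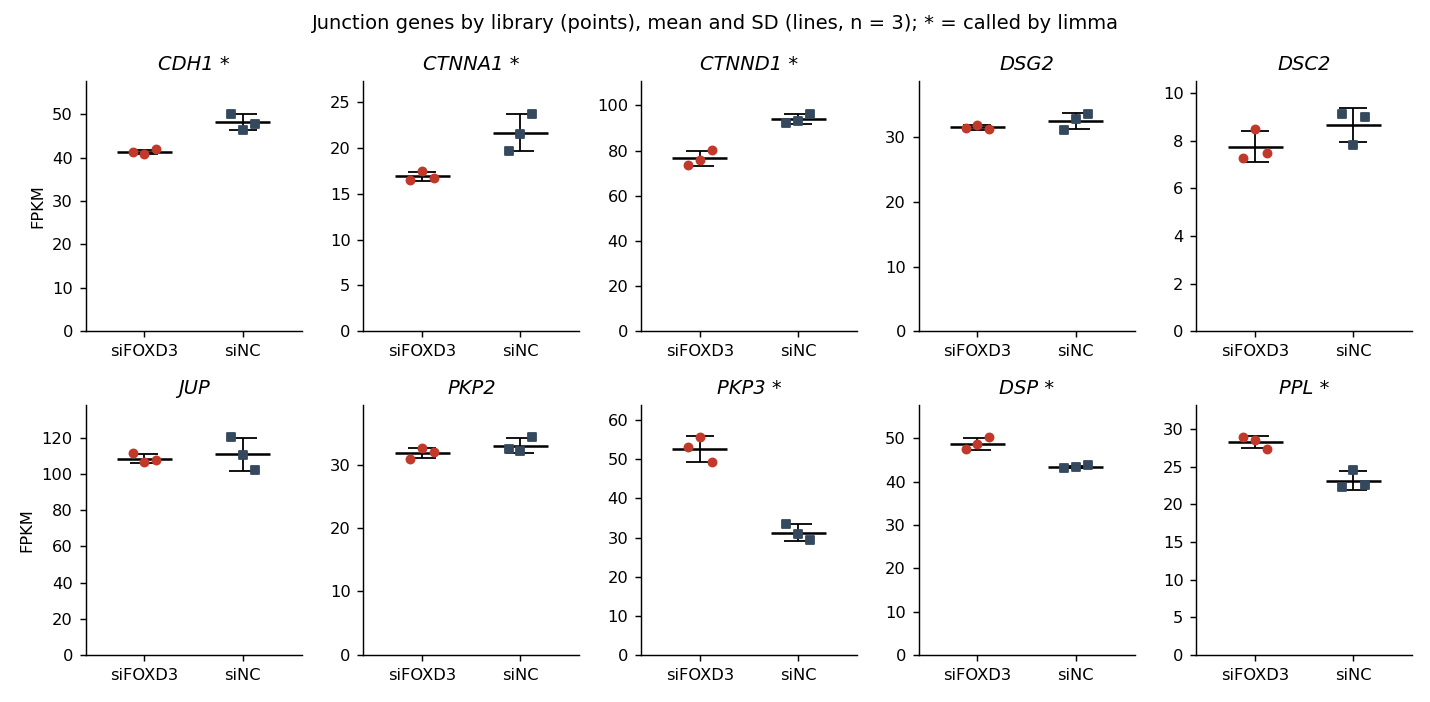
FPKM of each member in each library, siFOXD3 at left and siNC at right, with points for libraries and lines for the mean and SD (n = 3 per group); every axis starts at 0 and an asterisk marks a call by limma. The groups do not overlap for CDH1, CTNNA1, CTNND1, PKP3, DSP and PPL, and overlap for DSG2, DSC2, JUP and PKP2.

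RefSeq promoter sequences on GRCh38.p14, from 250 bases before to 50 bases after a transcription start, were held for 5 members (CTNNA1, DSG2, DSC2, JUP and DSP) and not for CDH1, CTNND1, PKP2, PKP3 and PPL. One promoter is shown for a member that fell (CTNNA1, the first of 4 starts by coordinate), one for a member that rose (DSP), and those of the neighbouring cadherins that were not called (DSG2, and DSC2 at its lower start of 2), each 5′ to 3′ on the strand of the gene. Capitals mark the letters CAGGTG, the E-box bound by repressors such as SNAI1 and ZEB1, and TGTTTA, a core forkhead motif, each also as its reverse complement, since both strands were searched. No matches overlapped.
CTNNA1 (chr5:138753175-138753474, plus strand): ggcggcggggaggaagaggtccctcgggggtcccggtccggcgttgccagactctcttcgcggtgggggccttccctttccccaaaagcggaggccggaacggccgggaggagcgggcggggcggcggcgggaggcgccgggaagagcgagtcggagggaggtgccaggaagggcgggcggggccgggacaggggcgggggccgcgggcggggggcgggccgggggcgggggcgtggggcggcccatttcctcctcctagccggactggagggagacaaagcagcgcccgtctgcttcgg
DSP (chr6:7541421-7541720, plus strand): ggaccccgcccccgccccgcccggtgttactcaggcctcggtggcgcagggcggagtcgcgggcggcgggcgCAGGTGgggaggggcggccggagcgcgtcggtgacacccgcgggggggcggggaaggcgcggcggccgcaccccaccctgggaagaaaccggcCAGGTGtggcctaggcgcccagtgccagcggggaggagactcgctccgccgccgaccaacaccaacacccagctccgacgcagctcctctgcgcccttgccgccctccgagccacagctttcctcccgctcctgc
DSG2 (chr18:31497927-31498226, plus strand): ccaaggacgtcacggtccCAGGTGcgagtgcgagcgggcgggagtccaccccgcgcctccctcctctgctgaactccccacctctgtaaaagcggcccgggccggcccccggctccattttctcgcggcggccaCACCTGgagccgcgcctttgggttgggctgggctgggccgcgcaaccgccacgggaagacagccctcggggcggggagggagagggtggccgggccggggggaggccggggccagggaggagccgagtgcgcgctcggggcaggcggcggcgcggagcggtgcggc
DSC2 (chr18:31101211-31101510, minus strand): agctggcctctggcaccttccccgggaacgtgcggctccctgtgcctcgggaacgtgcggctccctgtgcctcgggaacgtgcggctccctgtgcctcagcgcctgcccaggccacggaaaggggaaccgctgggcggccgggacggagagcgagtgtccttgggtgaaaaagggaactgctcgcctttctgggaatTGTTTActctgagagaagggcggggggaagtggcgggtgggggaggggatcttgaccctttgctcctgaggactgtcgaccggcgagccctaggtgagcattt

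The E-box letters were found in 4 of the 10 promoters of these members, 1 each of DSP, DSG2, DSC2 and JUP, and in 20.6% of all 35116 promoters of the table. DSP held them 178 and 85 bases before its start, DSG2 at 232 and 116, JUP at 54 and 43 from its second start, and DSC2 at 156 from its other start. The forkhead letters were found in 2 of the 10 promoters, DSC2 at 53 bases and JUP at 179 bases before a start, and in 12.3% of all promoters. No CTNNA1 promoter held either. The 10 promoters belong to 5 members, and 4 are starts of CTNNA1, some with overlapping sequence, so they are not independent. Their GC content ran from 42.3% to 77.7%, against a median of 58.7% over all promoters. The shares were not compared by a test. Members with the E-box letters thus include DSP, which rose, and DSG2, which was not called; a match of letters is a description and not a binding site.

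CDH1, which encodes E-cadherin and lies on chromosome 16, had 41.2, 40.9 and 41.9 FPKM in siFOXD3, against 50.2, 46.5 and 47.9 FPKM in siNC. All siFOXD3 values lay below the lowest siNC value, and the siFOXD3 mean was 0.859 times the siNC mean. This is a log2 difference of -0.21 with an SE of 0.05 (adjusted p = 0.00355, limma with Benjamini-Hochberg adjustment). Relative to the all-gene median the change was -0.14, and after median-of-ratios scaling, which moves the median of all genes close to 0, CDH1 stood at -0.13 and was no longer called (adjusted p = 0.0558).

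CTNNA1, alpha-catenin, is encoded on chromosome 5 and had 16.5, 17.5 and 16.8 FPKM in siFOXD3, against 19.7, 21.6 and 23.8 FPKM in siNC. The groups did not overlap, and the siNC values were spread more widely (SD 2.03) than the siFOXD3 values (SD 0.513). The ratio of means was 0.780, and limma gave a log2 difference of -0.34 with an SE of 0.07 (Benjamini-Hochberg adjusted p = 0.00229).

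CTNND1, p120-catenin, is encoded on chromosome 11 and is the more abundant of these catenins. It had 73.8, 76.0 and 80.2 FPKM in siFOXD3, against 92.3, 93.0 and 96.4 FPKM in siNC. Again the groups did not overlap, with a ratio of means of 0.817 and a log2 fold change of -0.29 ± 0.05 (SE, limma, Benjamini-Hochberg adjusted p = 0.000453). The readthrough transcript TMX2-CTNND1 shares its exons and was listed at no more than 3.28e-07 FPKM, so how the reads were split between the loci is uncertain. The ratio CTNNA1/CTNND1 overlapped between the groups, at 0.224, 0.230 and 0.209 in siFOXD3 and 0.213, 0.232 and 0.247 in siNC (difference of log2 means -0.06, two-sided exact permutation p = 0.4).

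Together, CDH1, CTNNA1 and CTNND1 summed to 135 ± 3.75 FPKM in siFOXD3 and 164 ± 3.72 FPKM in siNC (SD, n = 3 each). Their share of the summed FPKM of all members was lower for each: CTNND1 held 17.3 ± 0.718% in siFOXD3 and 21.0 ± 0.721% in siNC, CDH1 9.31 ± 0.143% and 10.8 ± 0.280%, and CTNNA1 3.81 ± 0.0967% and 4.86 ± 0.515%, in the same order of groups.

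The desmosomal cadherins were represented by DSG2 and DSC2. Both are encoded in the desmosomal cadherin cluster on chromosome 18, and together they made up 99.9% of the summed FPKM of 7 desmogleins and desmocollins in the lowest siFOXD3 library and 99.0% in the lowest siNC library. DSG2, desmoglein 2, had 31.5, 32.0 and 31.3 FPKM in siFOXD3, against 31.1, 32.8 and 33.7 FPKM in siNC. The groups overlapped, and the log2 fold change was -0.04 (95% interval -0.16 to 0.08, limma, Benjamini-Hochberg adjusted p = 0.508). DSC2, desmocollin 2, was the least abundant member, at 7.27, 8.49 and 7.48 FPKM in siFOXD3, against 9.13, 7.83 and 8.98 FPKM in siNC. One siFOXD3 library lay within the siNC range, and the interval of -0.33 to 0.05 for its log2 fold change of -0.14 (adjusted p = 0.177) leaves room for a fall of the size seen for CDH1. The ratio DSG2/DSC2 ran from 3.76 to 4.33 in siFOXD3 and from 3.41 to 4.19 in siNC, and its groups overlapped (two-sided exact permutation p = 0.3).

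JUP, plakoglobin, which serves both junctions, is encoded on chromosome 17 and was the most abundant member. It had 112, 106 and 108 FPKM in siFOXD3, against 120, 110 and 102 FPKM in siNC, so that the siFOXD3 values lay inside the siNC range. The siNC libraries varied by 8.22% (SD over mean), against 2.46% in siFOXD3 and 1.93% expected from counting at the estimated depth. The log2 fold change was -0.03 (95% interval -0.16 to 0.11, limma, Benjamini-Hochberg adjusted p = 0.711), and it was 0.03 without siNC replicate 1 and 0.06 with median-of-ratios scaling. CTNNB1, beta-catenin, which competes with JUP for the tail of E-cadherin, averaged 141 ± 3.12 FPKM in siFOXD3 and 146 ± 2.37 FPKM in siNC (SD, n = 3 each) and was not called either (log2 fold change -0.05, adjusted p = 0.326), although it was called lower with quantile normalization (-0.17, adjusted p = 0.00648). The ratio JUP/CTNNB1 was 0.775, 0.773 and 0.764 in siFOXD3, against 0.839, 0.745 and 0.698 in siNC, and the siFOXD3 values lay within the siNC range.

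The plakophilins are armadillo proteins that cluster desmosomal cadherins and recruit desmoplakin. PKP3, encoded on chromosome 11, had 53.1, 55.6 and 49.2 FPKM in siFOXD3, against 33.5, 31.0 and 29.4 FPKM in siNC. The lowest siFOXD3 value stood well above the highest siNC value, at a ratio of means of 1.68. Its log2 fold change of 0.73 ± 0.07 (SE, limma, Benjamini-Hochberg adjusted p = 5.53e-06) was the largest of the members in either direction, and 5.22% of all genes tested had a higher one. PKP2, encoded on chromosome 12, had 30.9, 32.6 and 32.0 FPKM in siFOXD3, against 32.5, 32.2 and 34.3 FPKM in siNC. These groups overlapped, with a log2 fold change of -0.05 (95% interval -0.17 to 0.07, adjusted p = 0.424).

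The pair therefore differed in balance between the groups. The ratio PKP2/PKP3 was 0.583, 0.586 and 0.649 in siFOXD3, against 0.969, 1.04 and 1.17 in siNC. In siNC the genes were near parity, while in every siFOXD3 library PKP3 was the more abundant of the pair. The log2 ratio was lower in siFOXD3 (a difference of log2 means of -0.80), the groups did not overlap, and p was 0.1 by a two-sided exact permutation test, the lowest value possible with 3 libraries a group (0.3 adjusted over the 6 ratios examined). A ratio within a library does not depend on the scaling between libraries.

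**Figure D2:**
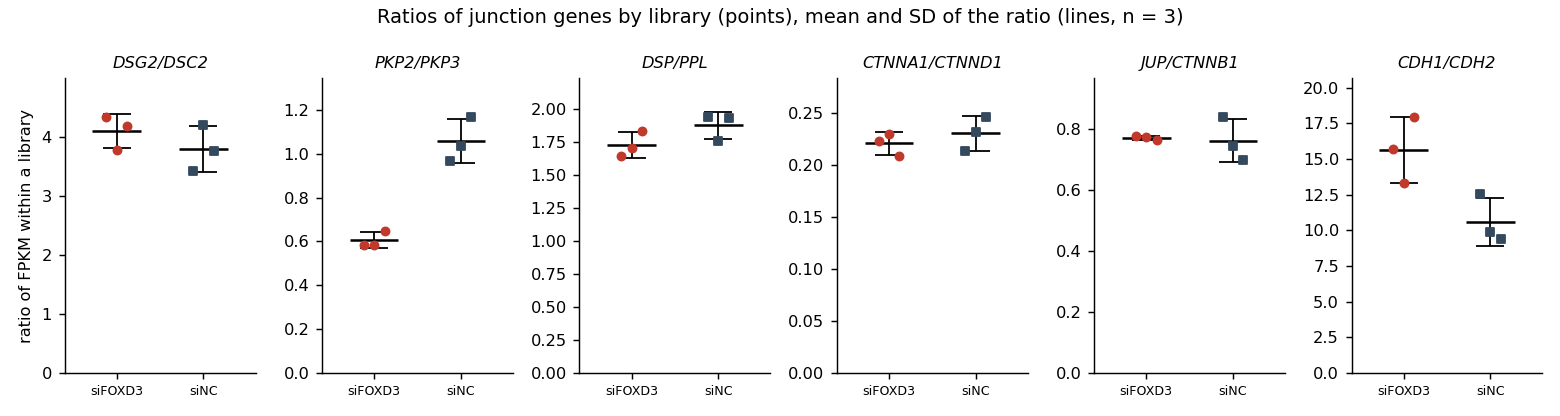
Ratio of FPKM of paired genes within each library, siFOXD3 at left and siNC at right, with points for libraries and lines for the mean and SD (n = 3 per group), each axis starting at 0. PKP2/PKP3 (0.583 to 0.649 in siFOXD3, 0.969 to 1.17 in siNC) and CDH1/CDH2 do not overlap between the groups, and the other 4 pairs do.

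Among the plakins, DSP, desmoplakin, encoded on chromosome 6, had 47.4, 48.6 and 50.2 FPKM in siFOXD3, against 43.2, 43.3 and 43.7 FPKM in siNC. The groups did not overlap, and the siNC values lay within an SD of 0.306 FPKM. That SD was 0.705% of the siNC mean, less than the 1.77% expected from counting at the estimated depth. The siNC spread of DSP may therefore be understated. At 0.16 with an SE of 0.05, its log2 difference (adjusted p = 0.0120, limma with Benjamini-Hochberg adjustment) was the smallest of the called members, and the call was lost without siFOXD3 replicate 3 (0.14, adjusted p = 0.0585) and with quantile normalization (0.11, adjusted p = 0.0675). PPL, periplakin, encoded on chromosome 16, had 28.9, 28.6 and 27.4 FPKM in siFOXD3, against 22.3, 24.6 and 22.6 FPKM in siNC. All siFOXD3 values were above the siNC values, with a ratio of means of 1.22 and a log2 fold change of 0.28 ± 0.06 (SE, limma, Benjamini-Hochberg adjusted p = 0.00196). The ratio DSP/PPL overlapped between the groups (1.64 to 1.83 in siFOXD3, 1.76 to 1.94 in siNC, two-sided exact permutation p = 0.2).

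**Figure D3:**
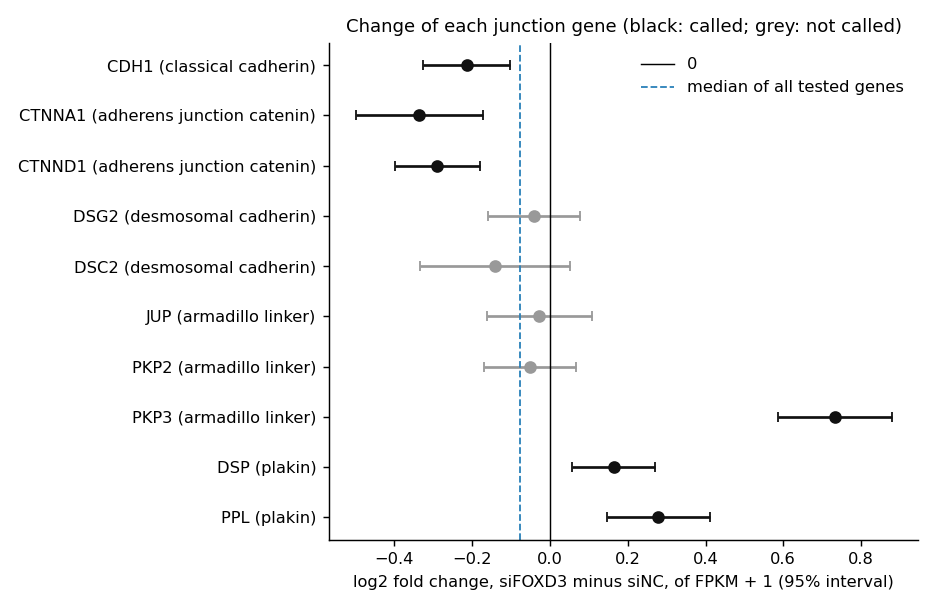
Log2 fold change of FPKM + 1 (siFOXD3 minus siNC) of each member with its 95% interval from limma, on the x axis, by member and role on the y axis; black points are called, grey points are not, and the dashed line is the median of all tested genes (-0.08). The adherens junction members lie left of 0, PKP3, DSP and PPL lie right of it, and the intervals of the other 4 span it.

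The exact permutation test over the 6 libraries returned p = 0.1, its lowest possible value here, for each of the 6 called members, and 0.2 to 0.8 for the others. No overlap between siFOXD3 and siNC values was seen for 6 of 10 members, against 70.7% of all genes tested. In level, JUP and CTNND1 were first and second in both groups, and CTNNA1 and DSC2 were the lowest, with DSC2 last. PKP3 ranked 3 of 10 in siFOXD3, where its range overlapped that of DSP, and 7 of 10 in siNC, where its range overlapped that of DSG2. PKP2 and DSG2 overlapped each other in both groups, and PPL and CTNNA1 overlapped in siNC and not in siFOXD3.

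The wider junction was read from gene lists drawn up from textbook knowledge. Of 9 other desmosome genes, 3 were tested: PERP, a tetraspan membrane protein of desmosomes, rose (155 ± 3.30 FPKM in siFOXD3 and 118 ± 8.75 FPKM in siNC, SD, n = 3 each, log2 fold change 0.40, limma, Benjamini-Hochberg adjusted p = 0.000136), and PKP4, a plakophilin-related armadillo protein, rose by 0.20 (adjusted p = 0.0170, but 0.0682 without siFOXD3 replicate 2 and 0.0536 without siFOXD3 replicate 3). The plakin EVPL, envoplakin, the partner of periplakin, was not called at 12.4 ± 0.264 FPKM in siFOXD3 and 12.5 ± 0.630 FPKM in siNC. The other 6, DSG1, DSG3, DSG4, DSC1, DSC3 and PKP1, which are cadherins and a plakophilin of stratified epithelium, did not exceed 0.190 FPKM in any library.

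Of 6 other classical cadherins, 3 were tested and all 3 fell. CDH3, P-cadherin, which lies next to CDH1 on chromosome 16, was at 25.2 ± 0.133 FPKM in siFOXD3 and 39.5 ± 3.36 FPKM in siNC (log2 fold change -0.62, limma, Benjamini-Hochberg adjusted p = 1.72e-05). CDH2, N-cadherin, the cadherin of mesenchymal and neural cells, was at 2.68 ± 0.368 FPKM in siFOXD3 and 4.60 ± 0.560 FPKM in siNC (-0.61, adjusted p = 0.000809). CDH5, the endothelial cadherin, fell by 0.40 (adjusted p = 0.00756), but by 0.12 with quantile normalization (adjusted p = 0.372). The ratio CDH1/CDH2 was 15.7, 13.3 and 18.0 in siFOXD3, against 12.5, 9.91 and 9.36 in siNC, so that while both genes fell the proportion of CDH1 to CDH2 was higher in every siFOXD3 library (difference of log2 means 0.56, two-sided exact permutation p = 0.1, 0.3 adjusted over the 6 ratios).

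Of 11 other catenins and actin linkers, 8 were tested, 6 fell and none rose (4 fell with median-of-ratios scaling and 8 with quantile normalization, and none rose in either), with a median log2 fold change of -0.23, against -0.08 over all genes tested. ARVCF, a p120-related catenin, was at 0.448, 0.438 and 0.462 FPKM in siFOXD3, against 1.43, 1.67 and 1.69 FPKM in siNC. It passed the filter on low values through siNC alone, so its lower call (log2 fold change -0.84, or -1.62 and -0.27 with pseudocounts of 0.1 and 5 FPKM) was favoured by the filter, and it was not tested when any siNC library was left out. Without ARVCF, 5 of 7 tested genes of the list fell, with a median of -0.20. LIMA1, which binds actin at the junction, fell by 0.42, the alpha-catenin-related CTNNAL1 by 0.39 and the actin crosslinker ACTN1 by 0.26, with adjusted p-values of at most 0.000482 by limma and Benjamini-Hochberg. Among 5 nectins and afadin, the immunoglobulin-type adhesion system of the adherens junction, 4 were tested. PVRL4 (nectin-4, -0.67), PVRL2 (nectin-2, -0.65) and the adaptor MLLT4 (afadin, -0.39) fell, with adjusted p-values of at most 0.000137, and PVRL1 (nectin-1) rose to 3.65 ± 0.722 FPKM in siFOXD3, against 2.16 ± 0.289 FPKM in siNC (0.55, limma, Benjamini-Hochberg adjusted p = 0.00363). Over the 4 lists of junction components, 3 of the 17 genes tested apart from ARVCF rose and 11 fell, while 27.2% of all genes tested rose and 38.7% fell; the lists were not tested as sets.

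**Figure D4:**
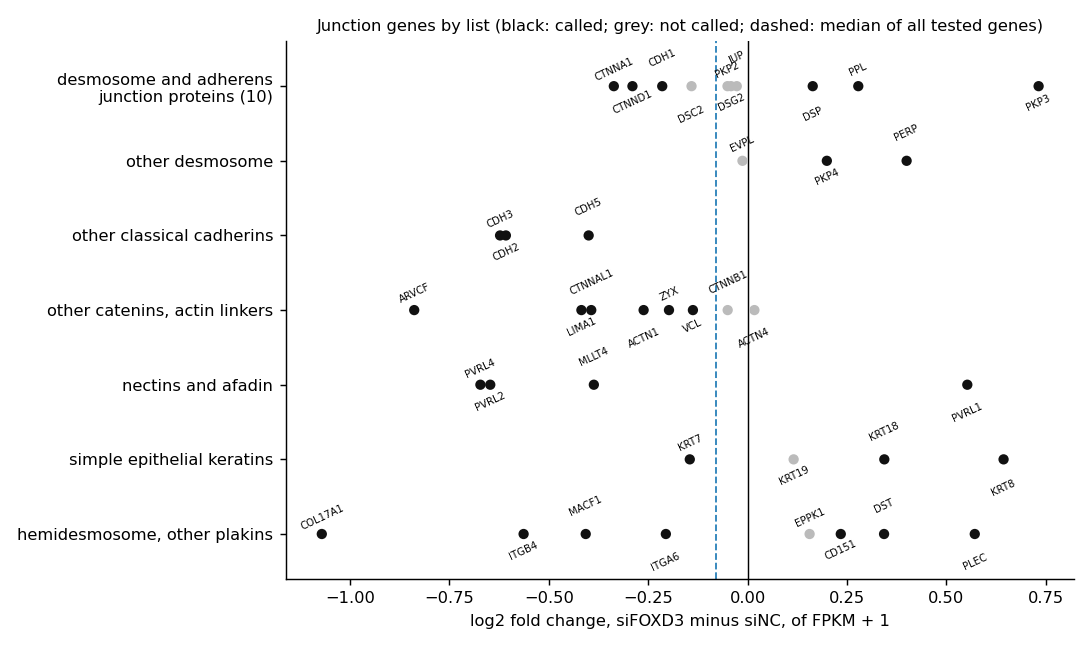
Log2 fold change of FPKM + 1 (siFOXD3 minus siNC, x axis) of the tested genes of 7 lists (y axis); black points are called by limma, grey points are not, and the dashed line is the median of all tested genes (-0.08). The tested genes of the list of other classical cadherins lie left of the dashed line, and the catenin and linker list lies left of 0 apart from ACTN4 at 0.02.

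Keratins are the filaments that desmosomes anchor. KRT8 (log2 fold change 0.64, adjusted p = 1.94e-05 by limma) and its partner KRT18 (0.34, adjusted p = 6.84e-05) rose, KRT19 was not called (but was called higher with quantile normalization and without siNC replicate 1), and KRT7 was at 1545 ± 8.35 FPKM in siFOXD3 and 1709 ± 35.3 FPKM in siNC (-0.15, limma, Benjamini-Hochberg adjusted p = 0.00335), a call that was lost with median-of-ratios scaling (-0.06, adjusted p = 0.198) and with quantile normalization (-0.09, adjusted p = 0.0596). In the hemidesmosome, which anchors keratin to the matrix, and among other plakins, 3 of 8 tested genes rose and 4 fell (4 and 3 with median-of-ratios scaling). Of all genes tested, 27.2% rose and 38.7% fell, so these counts are no result about the list. PLEC, plectin, a plakin relative of DSP, rose (45.6, 44.6 and 42.0 FPKM in siFOXD3 and 29.5, 30.7 and 27.8 FPKM in siNC, log2 fold change 0.57), while MACF1, a plakin that binds actin and microtubules (-0.41), the integrin ITGB4 (-0.56) and the collagen COL17A1 (-1.07) fell. For these changes the adjusted p was at most 0.000377 (limma, Benjamini-Hochberg).

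Regulators of CDH1 and of epithelial identity did not move in a common direction. Of 6 repressors of CDH1, 3 were tested: TCF3 rose (35.4 ± 0.284 FPKM in siFOXD3 and 24.4 ± 1.22 FPKM in siNC, log2 fold change 0.52, limma, Benjamini-Hochberg adjusted p = 1.86e-05), SNAI2 was at 1.29 ± 0.266 FPKM in siFOXD3 and 1.96 ± 0.408 FPKM in siNC (-0.37, adjusted p = 0.0367, with overlapping groups), and SNAI1 was not called, although quantile normalization made it a higher call. The call of SNAI2 was lost in 8 of the 14 alternatives in which it was tested, among them quantile normalization (-0.07) and leaving out siFOXD3 replicate 1 or 3 or siNC replicate 1 or 3 (adjusted p = 0.0705, 0.137, 0.0891 and 0.144). ZEB1 and ZEB2 did not exceed 0.244 FPKM, and TWIST1 was in no file. Of 6 epithelial transcription and splicing regulators, 2 rose and 2 fell: GRHL2 (0.29) and the splicing regulator ESRP2 (0.54) rose, and ESRP1 (-0.40) and the transcription factor ELF3 (-0.58) fell, and the adjusted p was at most 0.00141 (limma, Benjamini-Hochberg). Such counts are near the 27.2% of all genes tested that rose and the 38.7% that fell.

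Of 13 genes of cadherin shedding, phosphorylation and turnover, 5 fell and none rose, with a median of -0.10, and a share of 5 in 13 is near the 38.7% of all genes tested that fell. With median-of-ratios scaling 5 fell and 4 rose, with quantile normalization 7 fell and 1 rose, and without siNC replicate 2 or 3 1 rose. FYN, a Src-family kinase found at junctions, was at 3.40 ± 0.446 FPKM in siFOXD3 and 12.8 ± 0.787 FPKM in siNC (log2 fold change -1.66, limma, Benjamini-Hochberg adjusted p = 2.92e-07). The receptor phosphatases PTPRM (-0.73) and PTPRF (-0.48) and the kinase SRC (-0.34) fell as well, with an adjusted p of at most 0.000392.

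The nearest protein-coding neighbours, in the RefSeq order of genes, did not share the members' changes throughout. PKP3 rose while the genes on its sides, B4GALNT4 (-0.44) and SIGIRR (-0.32), fell (limma, Benjamini-Hochberg adjusted p = 0.000474 and 0.00239). CTNNA1 fell while HSPA9 beside it rose by 0.17 (adjusted p = 0.0105). RIOK1 beside DSP (0.61) and UBN1 beside PPL (0.33) rose (adjusted p = 0.000166 and 0.000782), as did those members. SNRNP48 on the other side of DSP was not called (-0.08, limma adjusted p = 0.470). CDH3 fell beside CDH1, while TMCO7 on the other side was not called (0.10, adjusted p = 0.463). Beside JUP, itself not called, LEPREL4 fell by 0.27 (limma adjusted p = 0.00420) and HAP1 was not called (-0.03, adjusted p = 0.836). Beside DSG2 and DSC2 the cadherins DSG3, DSC3 and DSC1 were below the filter.

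PKP3 had the largest change, so the genes most like it over the 6 libraries were looked up by Pearson r of log2(FPKM + 1). They were TMEM201, an inner nuclear membrane protein (r = 0.9998), RANBP1, a regulator of nuclear transport (r = 0.999), and DYNLL2, a dynein light chain (r = 0.999). RANBP1 was at 132, 140 and 122 FPKM in siFOXD3, against 73.8, 70.3 and 64.8 FPKM in siNC, with siFOXD3 replicate 3 the lowest of its group as for PKP3. Since RANBP1 was chosen by r over the same 6 libraries, a shared order of replicates is no further sign of likeness. Such values are common in these data: 1555 of the other tested genes (12.4%) had r of at least 0.95, since the groups differ for most genes.

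Markers of other cell types and of A549 itself were read beside these genes. Of 8 markers of stratified epidermis, where PKP3, DSP and PPL are abundant, 5 reached 1 FPKM in any siFOXD3 library and 2 in any siNC library, KRT14 and TP63 among them in 1 siFOXD3 library each, and their summed FPKM was 15.8 to 17.2 in siFOXD3 and 10.3 to 12.9 in siNC. Only 3 of them were tested: KRT10, which holds most of the sum, rose (10.2 ± 0.379 FPKM in siFOXD3 and 7.63 ± 1.20 FPKM in siNC, log2 fold change 0.38, limma, Benjamini-Hochberg adjusted p = 0.00652), CDSN was not called (0.04, adjusted p = 0.751, although it was called higher with quantile normalization), and KRT5 was called higher at 2.54 ± 0.0122 FPKM in siFOXD3 and 0.542 ± 0.139 FPKM in siNC, passing the filter through siFOXD3 alone. KRT14 and IVL overlapped between the groups, KRT1 was listed in no siNC library and at no more than 0.0918 FPKM in siFOXD3, and loricrin was in no file. The markers of A549 and lung adenocarcinoma summed to 9062 to 9089 FPKM in siFOXD3 and 6554 to 7228 FPKM in siNC. Of the 8 of them tested, 6 rose and KRT7 fell (a call lost under both other scalings, as above), with a median log2 difference of 0.53. Of all genes tested, 27.2% rose and 38.7% fell, with a median of -0.08, and the markers were not tested as a set. KRT8 and KRT18 make up most of the summed FPKM of these markers. ALDH1A1, a retinal dehydrogenase abundant in A549, was at 98.1 ± 6.93 FPKM in siFOXD3 and 31.7 ± 2.31 FPKM in siNC, and AKR1B10, an aldo-keto reductase, at 752 ± 14.3 FPKM in siFOXD3 and 391 ± 4.45 FPKM in siNC. The part of these marker changes in those of the junction genes was not tested. Of 7 fibroblast markers 1 reached 1 FPKM in each group (COL1A1), and their sum was 2.96 to 3.58 FPKM in siFOXD3 and 3.61 to 4.58 FPKM in siNC. Of 8 leukocyte markers 2 reached it (CD68 and CD14), with a sum of 67.2 to 68.3 FPKM in siFOXD3 and 72.6 to 82.8 FPKM in siNC, and PTPRC, the common leukocyte antigen, did not exceed 0.309 FPKM.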

How the data were processed

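Each library has 1 table from the authors with a gene symbol and an FPKM value on each row, per the file headers. TopHat, Cufflinks and hg19 are named in the submitters' processing notes; their versions, the gene annotation and any use of strand are not stated there. Titles gave the groups and replicate numbers. Per the labels' protocols, libraries were made from 1 ug of RNA with an Illumina TruSeq kit.

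Rows of a symbol were summed and an absent symbol set to 0; each member had 1 row in every file. The 12555 genes that reached 1 FPKM in 3 or more of the 6 libraries entered limma 3.58.1 (R 4.3.3, trend and robust options, two-sided) as log2(FPKM + 1), with no covariate, and p-values were adjusted over all of them by Benjamini-Hochberg. Fold changes on that scale understate the change of low genes. Ratios of genes within a library were compared with exact permutation tests in scipy 1.17.1. In a simulation over 12555 genes, 200 of them were changed. On the log2 scale, 25.4% of changes of 0.25, 62.7% of 0.5 and 92.4% of 1 were recovered, with 3 false calls. In the data 65.9% of genes were called, so the Benjamini-Hochberg cut was stricter in the simulation. Its rates of recovery and false calls therefore do not describe the comparison of siFOXD3 with siNC.

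Depth was estimated from the steps of low FPKM values of 985 genes with a single GENCODE 29 transcript, assuming fragments of 150 bases. On 4 simulated libraries the estimate was within 1.81%. These were simulated with the same 150 bases, so error from the assumed fragment length is not covered. Fragments per member use its longest coding transcript, and counting error covers counting only. Members, lists and tests were chosen with earlier results of these data known. The genes named are the members, FOXD3, the ratio partners, up to 4 called genes of each list with the largest change (the 2 most abundant where fewer than 2 were called), and the 3 genes most like the member with the largest change; EVPL, KRT19, SNAI1, ACTN4, TMX2-CTNND1, the neighbouring genes, the markers and genes at very low levels were added after their values were seen. Reads of near-identical or overlapping genes can be split, so keratins, which have many processed pseudogenes, are uncertain. Figures were drawn with matplotlib 3.10.9.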

Additional observations from a re-analysis of the deposited data

How the results depend on the processing

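Under 15 alternatives (pseudocounts of 0.1 and 5 FPKM, no filter, a filter at 5 FPKM, median-of-ratios scaling, quantile normalization, limma without trend and robust, a replicate block, the highest row per symbol and file, and each of the 6 libraries left out), CTNNA1, CTNND1, PKP3 and PPL kept their direction and call in all. CDH1 lost its call with median-of-ratios scaling, and DSP with quantile normalization and without siFOXD3 replicate 3, so that 5 or 6 members were called throughout. PKP3 ranged from 0.67 to 0.82. With median-of-ratios scaling the log2 fold changes of DSG2, JUP, PKP2 and CTNNB1 were 0.0442, 0.0605, 0.0353 and 0.0378. Each had the other sign than as deposited and was not called in either. Relative to the all-gene median, these genes were already above 0 as deposited, at 0.0367, 0.0512, 0.0278 and 0.0282. With 1 library left out, that of JUP ran from -0.0848 (without siNC replicate 3) to 0.0326 (without siNC replicate 1). Why its siNC values differ was not tested. The difference of the log2 ratio JUP/CTNNB1 ran from -0.0364 to 0.0956 with 1 library left out. Quantile normalization moved the median of all genes to 0.03, against -0.08 as deposited, and the calls over all genes to 4255 higher and 3835 lower, against 3415 and 4863.

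Whether the replicate numbers shared by the groups pair the libraries is not stated in the labels, and the main fit used no pairing. Deviations from the group means correlated at 0.06, 0.16 and 0.11 for same-numbered libraries, against -0.12 to 0.03 for the others. Each library thus correlated best with its own number, though weakly. With the replicate number as a block, 6 members and 8172 genes were called. At the estimated depth, counting alone gives an SD of 1.64% (CTNND1) to 4.51% (CTNNA1) in a member's least covered library. The limma SE of the log2 fold change ran from 0.0481 (DSP) to 0.0869 (DSC2). With SEs of this size, changes of a few percent could not be detected.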
